A study of Rattus norvegicus with 6 samples.

Results

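The 10 genes described here mark the intercalated cells of the renal connecting tubule and collecting duct: Foxi1, Atp6v1g3, Atp6v0d2, Atp6v1b1, Rhbg, Rhcg, Slc4a1, Slc26a4, Slc4a9 and Insrr. They were taken by name, and each was read from the array probe whose RefSeq transcript belongs to the gene, using the brightest probe where a gene had several. All 10 were found among 15284 genes that could be named on the array, and all 10 passed the filter on dim probes, so that they are 10 of the 11748 genes tested. Their 19 probes were well above background on all 6 arrays.

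The tissue was renal cortex from 6 male Sprague-Dawley rats, bought at 5 weeks of age, and each animal's total RNA was read on a single-colour array of its own. In the treated group, 3 rats were given 2-amino-4-nitrophenol over 4 weeks, in a daily dose of 750 mg/kg. The compound is an aromatic amine that carries a nitro group and serves as a hair dye ingredient. The other group was 3 rats given corn oil for 4 weeks. All rats ate a basal diet, and the comparison asks which cortical transcripts 2-amino-4-nitrophenol changed relative to corn oil. Per the series' design text, the 3 animals of each group are biological replicates.

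Intercalated cells set the acid and bicarbonate content of the urine. Type A cells secrete protons through a V-type proton ATPase (V-ATPase) in the apical membrane and return bicarbonate to the blood through the anion exchanger Slc4a1. Type B cells are the mirror image: pendrin, encoded by Slc26a4, exchanges chloride for bicarbonate at the apical membrane, and Slc4a9 lies in the basolateral membrane. In mice the forkhead transcription factor Foxi1 is needed for the intercalated cell programme, and the Rh glycoproteins Rhbg and Rhcg carry ammonia.

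Forkhead factors bind DNA through a core often written TGTTTA, or TGTTTG in a weaker form, and RefSeq promoter windows (GRCr8 build) were searched for these letters on both strands. Windows of 7 of the 10 genes were searched, and Atp6v0d2, Slc4a1 and Insrr were not. In the 250 bases before the start of the gene, 2 of the 7 held TGTTTA, against 12.1% of 33469 promoters, and 3 of the 7 held either form, against 25.2%. The pair that held TGTTTA, Atp6v1g3 and Atp6v1b1, encode subunits of the same proton pump and are printed because their treated means lay on opposite sides of their corn oil means, as given below. Capitals mark the matches on either strand, both windows lie on the plus strand and run 5′ to 3′, and a match describes letters, not binding. The windows are chr13:52362082-52362331 for Atp6v1g3 and chr4:117781194-117781443 for Atp6v1b1.
Atp6v1g3: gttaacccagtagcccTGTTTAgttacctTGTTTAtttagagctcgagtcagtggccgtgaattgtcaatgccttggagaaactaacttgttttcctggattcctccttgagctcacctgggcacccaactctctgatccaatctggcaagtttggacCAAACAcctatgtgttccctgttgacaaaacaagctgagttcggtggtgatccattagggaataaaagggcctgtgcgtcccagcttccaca
Atp6v1b1: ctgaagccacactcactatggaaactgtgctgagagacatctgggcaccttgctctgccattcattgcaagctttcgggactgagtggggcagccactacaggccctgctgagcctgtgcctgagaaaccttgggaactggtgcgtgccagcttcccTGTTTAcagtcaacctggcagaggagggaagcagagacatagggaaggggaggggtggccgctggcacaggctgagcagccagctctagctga
The third gene with a match was Slc4a9, which held TGTTTG 2 times. The windows of Slc26a4, Foxi1, Rhbg and Rhcg held neither form. These windows do not bear on which genes Foxi1 controls.

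From 61.6% to 66.3% of the non-control probes were well above background on the treated arrays, against 68.1% to 70.9% on the corn oil arrays, and no probe was saturated. Array values are log2 signals relative to the 75th percentile of the array, so that a level can be compared between arrays for 1 probe but not between probes. One slide held 5 of the arrays: the treated ones in row 2 and corn oil replicates 1 and 3 in row 1, so that row and group cannot be told apart there. Corn oil replicate 2 was alone on another slide. The 3 arrays per group limit the precision of every value.

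None of the 10 genes passed the test at an adjusted p of 0.05 (limma, Benjamini-Hochberg over 11748 genes), where 0.0255% of all genes did. At an unadjusted p under 0.05 there were 0 of 10, against 21.6% of all genes. For 1 of the 10, Rhbg, every treated array lay above every corn oil array, against 20.1% of all genes, and for 0 of the 10 every treated array lay below, against 10.1% (30.2% in either direction). The median log2 change, 2-amino-4-nitrophenol minus corn oil, was 0.02 over the 10 genes, from -0.35 to 0.51, and 0.04 over all genes tested. In whole tissue, fewer cells of a type and less RNA per cell cannot be told apart.

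**Figure D1:**
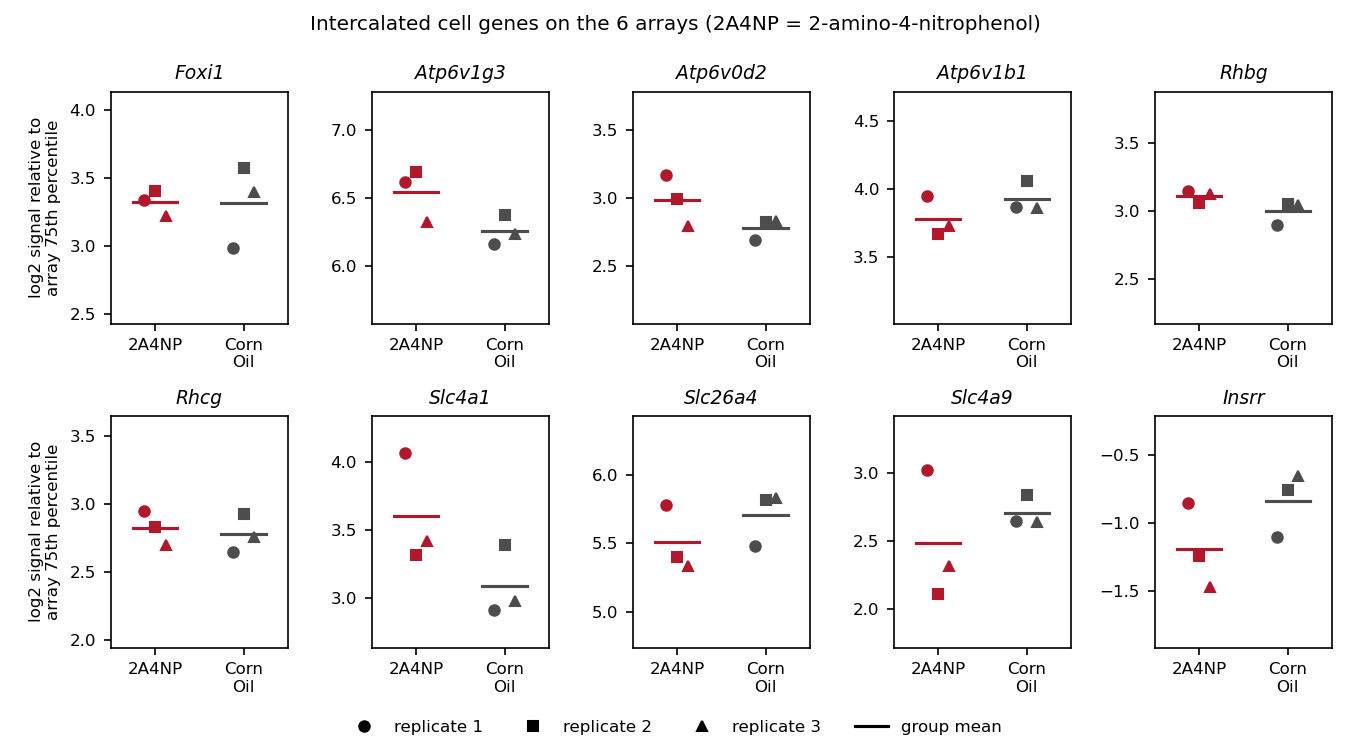
Log2 signal relative to the array's 75th percentile for each of the 10 genes (brightest probe) on the 3 treated (2A4NP) and 3 corn oil arrays. Marker shape gives the replicate number and bars are group means; every panel spans the same height on the log2 axis, and Rhbg is the gene whose groups did not overlap.

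Foxi1, the transcription factor of the set, had log2 values of 3.34, 3.40 and 3.22 on the treated arrays, against 2.99, 3.57 and 3.39 on the corn oil arrays (replicates 1, 2 and 3 in that order here and below). The treated values all lay inside the corn oil range. Its log2 change was 0.00094 ± 0.16 (limma SE, n = 3 per group; 95% interval -0.39 to 0.39; adjusted p = 0.998). Of all genes tested, 0.281% had a smaller absolute change. The 2 dimmer probes of Foxi1 had log2 changes of -0.23 and -0.29, so that the 3 probes gave no common direction.

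The V-ATPase subunits did not share a direction. Atp6v1g3, the kidney form of the G subunit in the cytosolic stalk, had log2 values of 6.61, 6.69 and 6.32 on the treated arrays, against 6.16, 6.37 and 6.24 on the corn oil arrays. Only treated replicate 3 lay inside the corn oil range. The log2 change was 0.28 ± 0.12 (1.22-fold; limma adjusted p = 0.247), with a 95% interval of -0.015 to 0.58. Its dimmer probe gave 0.13 ± 0.17, and scaling on spike-in controls turned the brighter probe to -0.035.

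Atp6v0d2, the d subunit that couples the stalk to the membrane sector, had 3.17, 3.00 and 2.80 on the treated arrays, against 2.69, 2.82 and 2.83 on the corn oil arrays. Treated replicates 1 and 2 were above all corn oil arrays, and treated replicate 3 was not. The log2 change of Atp6v0d2 was 0.20 ± 0.12 (limma adjusted p = 0.342), or -0.11 with spike-in scaling. Atp6v1b1, a B subunit of the ATP-hydrolysing head, whose human gene is mutated in distal renal tubular acidosis with deafness, lay on the other side. It had 3.94, 3.67 and 3.73 on the treated arrays, against 3.86, 4.05 and 3.86 on the corn oil arrays. Treated replicates 2 and 3 were below every corn oil array. Atp6v1b1 had a log2 change of -0.15 ± 0.11 (limma adjusted p = 0.459). The dimmer probe of Atp6v1b1 did not overlap between groups, at -0.40, -0.43 and -0.56 on the treated arrays against -0.14, -0.12 and -0.21 on the corn oil arrays, a log2 change of -0.31 ± 0.09 (limma adjusted p = 0.186 over 40894 probes).

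Inside an array the subunits could be set against each other without any scaling. Atp6v1g3 minus Atp6v1b1 had a difference of log2 changes of 0.43 ± 0.13 (SE over arrays), and Atp6v0d2 minus Atp6v1b1 had 0.35 ± 0.10. Both differences were larger on every treated array than on any corn oil array. They are among the 45 pairs of members counted below, which were examined after the values were known and carry no test.

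Each of these subunits has a common isoform made in most cells, and the common isoforms gave a check on the kidney forms. Atp6v1g1, Atp6v0d1 and Atp6v1b2 had log2 changes of 0.34 ± 0.10, -0.05 ± 0.11 and 0.02 ± 0.10. The kidney form minus the common form was -0.06 ± 0.13 for the G subunits, 0.25 ± 0.16 for the d subunits and -0.17 ± 0.19 for the B subunits, and each of these 3 within-array differences overlapped between groups.

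Rhbg and Rhcg are the ammonia channels. Rhbg, in the basolateral membrane, had 3.15, 3.06 and 3.12 on the treated arrays, against 2.90, 3.05 and 3.04 on the corn oil arrays. This was the gene whose groups did not overlap, with treated replicate 2 lying just above corn oil replicate 2. Rhbg had a log2 change of 0.11 ± 0.08 (limma adjusted p = 0.451; 95% interval -0.09 to 0.31). Its sign turned with quantile normalization (-0.0090) and with spike-in scaling (-0.21). Rhcg, at the apical membrane of intercalated and principal cells, had 2.94, 2.83 and 2.69 on the treated arrays, against 2.64, 2.93 and 2.76 on the corn oil arrays. These ranges overlapped almost fully. The log2 change of Rhcg was 0.05 ± 0.11 (limma adjusted p = 0.832; 95% interval -0.22 to 0.32), -0.066 with quantile normalization and -0.27 with spike-in scaling.

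Slc4a1 had the largest log2 change of the 10 with these settings, though not with all. This anion exchanger is the exit route for bicarbonate in type A cells and, as band 3, a main membrane protein of red cells. Its log2 values were 4.06, 3.32 and 3.42 on the treated arrays, against 2.91, 3.39 and 2.98 on the corn oil arrays. Treated replicate 1 was far above the other arrays, and treated replicate 2 was below corn oil replicate 2. This gave a log2 change of 0.51 ± 0.23 (1.42-fold; 95% interval -0.06 to 1.07; limma adjusted p = 0.264), and 90.7% of all genes had a smaller absolute change. Without treated replicate 1 it was 0.28, and the dimmer probe gave 0.23 ± 0.21. Blocking on the slide gave 0.66, the same fit as leaving out corn oil replicate 2, which was alone on its slide. In 5 of the 17 alternatives another of the 10 genes changed more: Slc4a1 had 0.37 against -0.43 for Slc26a4 with quantile normalization, and Insrr changed more in the other 4. Slc4a1 was at 0.19 and Insrr at -0.67 with spike-in scaling, 0.37 and -0.76 with the mean over probes, 0.28 and -0.52 without treated replicate 1, and 0.42 and -0.48 without corn oil replicate 1.

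Most red cell genes tested had higher treated means, as Slc4a1 did. Among the treated arrays their summed signal ranked as Slc4a1 did, and among the corn oil arrays it ranked in the opposite order. Of 18 erythroid genes listed, 14 could be named on the array and 11 were tested, and their summed signal on the linear scale was 1435, 971 and 1362 times the 75th percentile on the treated arrays, against 768, 523 and 654 on the corn oil arrays. Their median log2 change was 0.96, with 7 of 11 higher at an unadjusted p under 0.05 (14.3% of all genes) and 0 passing after adjustment. The beta globin gene Hbb had 0.96 ± 0.19, the alpha globin chaperone Ahsp 2.15 ± 0.46 and the erythroid heme synthesis enzyme Alas2 1.43 ± 0.48. Rhd, a blood group protein of the red cell membrane, had 1.95 ± 0.42. Rhag, the ammonia-channel relative of Rhbg and Rhcg in red cells, stayed below the well-above-background flag on all 6 arrays. Corn oil replicate 2 had the highest Slc4a1 value of the corn oil arrays and the lowest erythroid sum. That sum is carried mostly by the globin genes, the brightest of the 11. The part of red cell RNA in the Slc4a1 value was not tested.

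The treated means of the 3 genes of type B cells lay below their corn oil means, as did that of Atp6v1b1. Slc26a4, pendrin, had log2 values of 5.79, 5.40 and 5.33 on the treated arrays, against 5.48, 5.82 and 5.84 on the corn oil arrays. Treated replicate 1 lay with corn oil replicates 2 and 3, and corn oil replicate 1 lay near treated replicates 2 and 3. The log2 change was -0.20 ± 0.16 (limma adjusted p = 0.484; 95% interval -0.60 to 0.19). The dimmer probe did not overlap between groups, at 2.75, 2.38 and 2.21 on the treated arrays against 2.76, 2.91 and 3.02 on the corn oil arrays, with a log2 change of -0.45 ± 0.16 (limma adjusted p = 0.210 over probes).

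Slc4a9, the basolateral exchanger of type B cells, had 3.03, 2.12 and 2.32 on the treated arrays, against 2.65, 2.84 and 2.64 on the corn oil arrays. Treated replicate 1 was the highest of the 6 arrays and treated replicates 2 and 3 were the lowest. The log2 change was -0.22 ± 0.24 (limma adjusted p = 0.611), -0.49 without treated replicate 1 and -0.037 without treated replicate 2. A second probe of Slc4a9 gave -0.21 ± 0.25.

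Insrr encodes a receptor of the insulin receptor family that responds to alkaline pH and in mice is found on type B cells. Its brightest probe had -0.86, -1.24 and -1.47 on the treated arrays, against -1.10, -0.76 and -0.66 on the corn oil arrays. Treated replicates 2 and 3 were the lowest of the 6. This probe had a log2 change of -0.35 ± 0.19 (limma adjusted p = 0.331). The other 2 probes of Insrr were dimmer, separated the groups and gave larger changes. One had -1.95, -2.49 and -2.54 on the treated arrays, against -1.44, -1.42 and -1.34 on the corn oil arrays, a log2 change of -0.93 ± 0.17 (limma adjusted p = 0.126 over probes). The other had -2.79, -3.80 and -3.73 on the treated arrays, against -2.42, -2.43 and -2.41 on the corn oil arrays, a log2 change of -1.01 ± 0.27 (limma adjusted p = 0.176 over probes). The mean over the 3 probes gave -0.76 (limma adjusted p = 0.151).

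**Figure D2:**
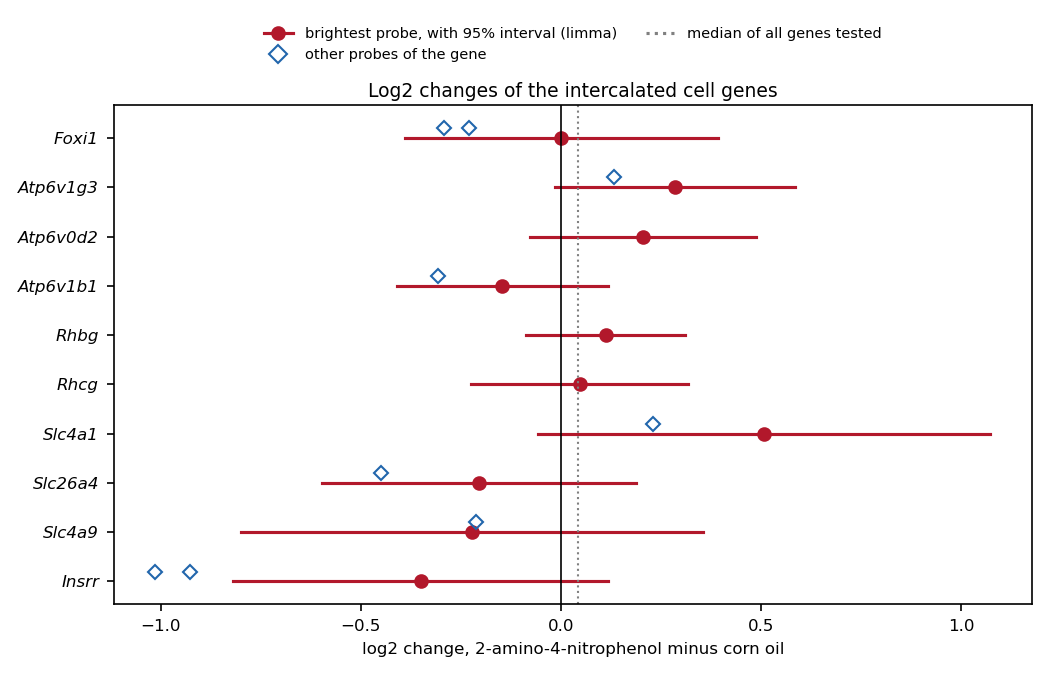
Log2 changes, 2-amino-4-nitrophenol minus corn oil, with limma 95% intervals for the brightest probe of each gene (filled circles) and the changes of its other probes (open diamonds). All 10 intervals include 0, and the 2 dimmer probes of Insrr lie at -0.93 and -1.01.

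Set against Slc4a1 inside each array, all 3 type B genes stood lower relative to Slc4a1 in the treated group. Slc26a4 minus Slc4a1 was 1.72, 2.08 and 1.92 on the treated arrays, against 2.57, 2.43 and 2.86 on the corn oil arrays, a difference of log2 changes of -0.71 ± 0.16 (SE over arrays). Slc4a9 minus Slc4a1 had -0.73 ± 0.10 and Insrr minus Slc4a1 had -0.86 ± 0.19. For all 3 pairs every treated array lay below every corn oil array, treated replicate 1 included. With the dimmer Slc4a1 probe these differences were -0.44, -0.45 and -0.58, again without overlap. Of all pairs of tested genes, 27.5% did not overlap in either direction. The 3 pairs with Slc4a1 were picked after the values were seen. They share the Slc4a1 value, to which the red cell measurements above apply.

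Against Atp6v1g3, a subunit of both cell types, Slc26a4 had a difference of log2 changes of -0.49 ± 0.16 and Insrr had -0.64 ± 0.18, both without overlap. Slc4a9 minus Atp6v1g3 overlapped between groups. Atp6v1g3 had the largest increase of the 10 genes after Slc4a1. Against Atp6v1b1, also of both types, all 3 type B genes overlapped between groups, at -0.06 for Slc26a4, -0.08 for Slc4a9 and -0.20 for Insrr. Of the 18 pairs of a type B gene and a member that was neither type B nor Slc4a1, 6 did not overlap. Over all 45 pairs of the 10 genes, 18 (40%) did not overlap, against 27.5% of the 69001878 pairs of tested genes. The 45 pairs share 10 genes and are not independent. Insrr was in 6 of its 9 pairs without overlap, Foxi1 in 0 of 9.

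**Figure D3:**
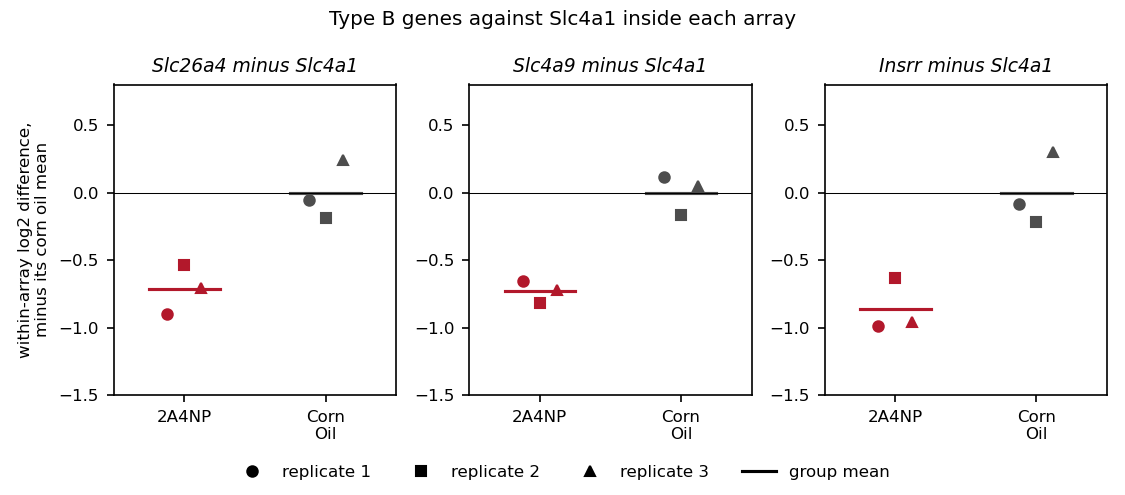
Within-array log2 difference between each type B gene and Slc4a1 (brightest probes), shifted so that the corn oil mean is 0, on the 3 treated (2A4NP) and 3 corn oil arrays. Marker shape gives the replicate and bars are group means; the treated means lie at -0.71, -0.73 and -0.86 for Slc26a4, Slc4a9 and Insrr.

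The arrays of a group differed among themselves in these genes. Treated replicate 1 was the highest treated array for 8 of the 10 genes, against 31.9% of all genes tested. Corn oil replicate 1 was the lowest corn oil array for 8 of the 10, against 31.4% of all genes. Relative to each gene's own mean, the 10 genes averaged 0.23, -0.06 and -0.14 on the treated arrays, against -0.17, 0.12 and 0.0073 on the corn oil arrays. Without treated replicate 1, the groups did not overlap for 5 of the 10 genes, where 50.4% of all genes did not. Rhbg was then higher, and Atp6v1b1, Slc26a4, Slc4a9 and Insrr were lower. None of the 10 passed after adjustment in that fit either.

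The 5 other genes whose profile over the 6 arrays was nearest to the average of the 10, among 11056 candidates, were Zfp54, Eno3, Phf1, Car1 and Gsn. Their root mean square difference from it was 0.047 to 0.053 on the log2 scale over the 6 arrays. Car1 is a carbonic anhydrase, Eno3 a glycolytic enolase and Gsn the actin-severing protein gelsolin. Their log2 changes lay between -0.05 and 0.03.

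Other genes of intercalated cells gave a similar picture. Of 23 listed, 20 could be named on the array and 19 were tested, with a median log2 change of -0.10, from -0.46 to 0.44, and 0 passed after adjustment. At an unadjusted p under 0.05, 1 was higher (14.3% of all genes) and 2 were lower (7.29% of all genes). The median was 0.012 with a slide block and -0.0052 without treated replicate 3. Car2, the cytosolic carbonic anhydrase that supplies protons and bicarbonate, had 5.14 on treated replicate 2 and 4.91 to 4.95 on the others, against 4.67 to 4.82 on the corn oil arrays, a log2 change of 0.24 ± 0.10 (limma adjusted p = 0.220). Slc4a8, a sodium-driven chloride and bicarbonate exchanger that in mice works with pendrin in type B cells, had a log2 change of -0.46 ± 0.12 (limma adjusted p = 0.141). Atp4a, the catalytic subunit of the gastric-type proton and potassium pump, had -0.37 ± 0.11 (limma adjusted p = 0.156). For Slc4a8 and Atp4a every treated array lay below every corn oil array. The type A water channel Aqp6 (0.18 ± 0.19), the receptor tyrosine kinase Kit (-0.27 ± 0.22) and the homeobox factor Hmx2 (-0.10 ± 0.15) overlapped between groups. A dimmer probe of Aqp6 had the other sign, -0.22 ± 0.14. Slc26a7 was well above background on 0 of the 6 arrays, and Atp6v0a4 was not analysed here.

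Common V-ATPase genes had a median log2 change of 0.14 over 15 tested, with 12 above 0 and 0 past the threshold. At an unadjusted p under 0.05, 4 of the 15 were higher, against 14.3% of all genes. Besides Atp6v1g1 these included the accessory subunit Atp6ap1 (0.22 ± 0.08) and Atp6v1f (0.30 ± 0.11). The median was -0.02 with quantile normalization and -0.18 with spike-in scaling.

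Principal cells, the neighbours of intercalated cells in the collecting duct, gave a median of -0.18 over 13 genes tested, with 0 past the threshold and 4 lower at an unadjusted p under 0.05, against 7.29% of all genes. Hsd11b2, which inactivates glucocorticoids, had -0.39 ± 0.10, the sodium channel subunit Scnn1g -0.45 ± 0.15 and the water channel Aqp3 -0.31 ± 0.11. Of the 13 genes, 2 lay above 0: another water channel, Aqp2 (0.18 ± 0.16), and St6gal1 (0.27 ± 0.12). For St6gal1 every treated array lay above every corn oil array, and Aqp2 overlapped between groups. The summed signal of the 13 genes was 226, 215 and 171 on the treated arrays, against 209, 225 and 212 on the corn oil arrays. The same sum for the 10 intercalated cell genes was 230, 207 and 181 on the treated arrays, against 173, 209 and 194 on the corn oil arrays. In both sums treated replicate 1 was the highest treated array and treated replicate 3 the lowest. Linear sums are carried mostly by the brightest genes, here Aqp2 for principal cells and Atp6v1g3 and Slc26a4 for intercalated cells.

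Distal convoluted and connecting tubule genes had a median of -0.32 over 9 tested, with 4 lower and 1 higher at an unadjusted p under 0.05, against 7.29% and 14.3% of all genes. Among the lower were the coreceptor klotho, Kl (-0.32 ± 0.07), the thiazide-sensitive cotransporter Slc12a3 (-0.53 ± 0.16) and the sodium-calcium exchanger Slc8a1 (-1.19 ± 0.36). The dimmer probes of Slc8a1 gave smaller falls, -0.44, -0.47 and -0.48, and those of Slc12a3 gave -0.52 and -0.13. Of the 9 genes, 2 lay above 0: Sall3 (0.62 ± 0.20, with dimmer probes at -0.47 and 0.10) and Klk1 (0.08 ± 0.12). Thick ascending limb genes had a median of 0.24 over 7 tested, with uromodulin (Umod) at 0.45 ± 0.12, the prostaglandin receptor Ptger3 at -0.26 ± 0.10 and the phosphatase inhibitor Ppp1r1a at 0.24 ± 0.12. This median was -0.022 with quantile normalization and -0.084 with spike-in scaling. No gene of these lists passed after adjustment (limma). The part of these neighbouring segments in the values of the intercalated cell genes was not tested.

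**Figure D4:**
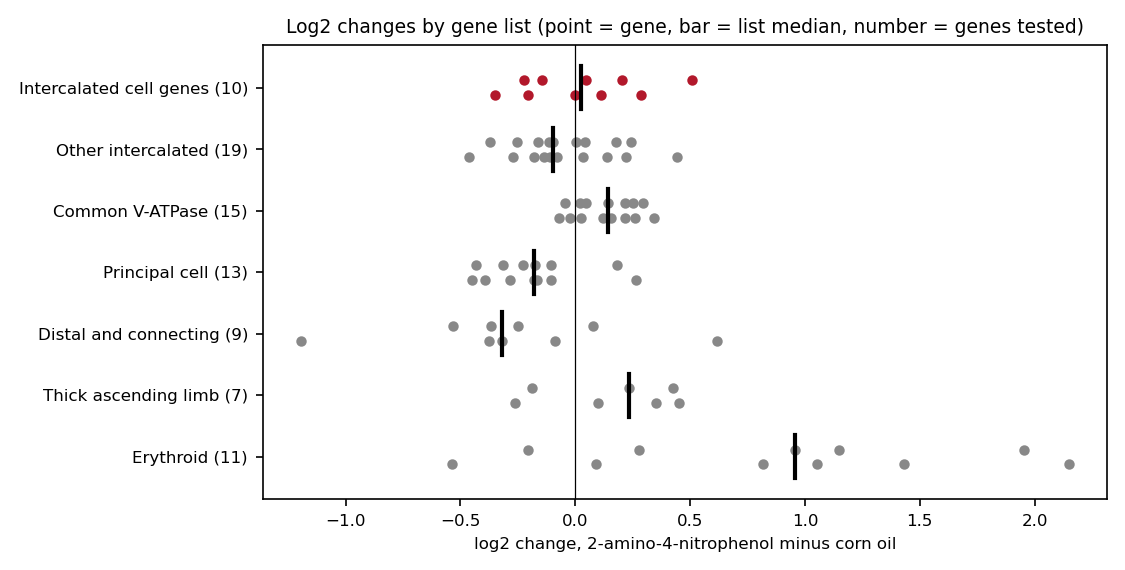
Log2 changes, 2-amino-4-nitrophenol minus corn oil, of the genes tested in each list (points) with the list median (bar). The intercalated cell genes centre on 0.02, the principal cell genes on -0.18, the distal and connecting genes on -0.32 and the erythroid genes on 0.96.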

How the data were processed

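Cy3-labelled renal cortex RNA was hybridised to 1-colour Agilent arrays. The scanner software was Agilent Feature Extraction 10.7.1.1 per the file headers and 10.7 per the submitters' processing notes. The deposited signal of each spot is a linear intensity after the software's background subtraction, per the file headers, and further deposited flags mark outlier spots and spots clearly above background. A second table by the authors gives each intensity as a ratio to the array's 75th percentile. The columns of this table fit scanner files of other replicates in the same group, and replicate numbers here are those of the scanner files.

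Values are log2 intensity relative to the array's own 75th percentile. Removed were 64 probes flagged as outliers, and 40894 probes passed the requirement of being well above background throughout at least 1 group. Gene names came from the probe's RefSeq accession and a RefSeq table (GRCr8). The file headers name an older build, so no array coordinates are given. The brightest kept probe stood for each gene. Groups were compared with limma 3.58.1 (lmFit, eBayes; R 4.3.3) with no block, adjusting by Benjamini-Hochberg over 11748 genes. Probes were also fitted singly. In simulated data for this comparison, 70 of 100 genes changed by 1 on the log2 scale and 89 of 100 changed by 2 were recovered over 11748 genes. Same-numbered arrays of both groups did not deviate together (r = 0.0065, -0.05 and -0.03 over genes), so the numbers were not taken as pairs.

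The members, lists and alternatives were chosen with earlier results of these data known. The named genes are all 10 members, the 3 genes with the lowest p of each other list, a few picked by name for each list, and the 5 nearest profiles. Pairs of members, the promoter motifs and the promoters printed were chosen after their values were seen.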

Additional observations from a re-analysis of the deposited data

How the results depend on the processing

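Under 17 alternatives (other background correction, scaling, filters, probes, blocks and variance settings, the authors' value table, and leaving out each array) no member passed the adjusted threshold in limma in any of 170 values, of which 155 kept their direction. Atp6v1b1, Slc4a1, Slc26a4, Slc4a9 and Insrr kept theirs in all 17. With scaling on 7 spike-in probes, the median over all genes moved by -0.32 on the log2 scale, and the values were -0.035 for Atp6v1g3, -0.11 for Atp6v0d2, -0.32 for Foxi1, -0.21 for Rhbg and -0.27 for Rhcg. Quantile normalization gave -0.13 for Foxi1, -0.0090 for Rhbg and -0.066 for Rhcg. Foxi1 was -0.067 with normexp correction and -0.17 with the mean over probes. Leaving out 1 array moved Foxi1 between -0.16 and 0.13 and Rhcg between -0.020 and 0.12.

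Members at an unadjusted p under 0.05 numbered 0, but 2 with normexp correction (Atp6v1g3 and Slc4a1, higher; 23.1% of all genes), 2 with the mean over probes (Atp6v1b1 and Insrr, lower; 20.8%), and 1 each with median scaling (22.4%), spike-in scaling (21.6%), a slide block (15.02%), and trend and robust settings (23.2%). Leaving out 1 array gave 0 to 2, where 13.0% to 30.7% of all genes passed. Members whose groups did not overlap numbered 1, but 2 with median scaling (30.7% of all genes), 3 with the mean over probes (29.0%), and 1 to 5 without 1 array (35.6% to 50.4% of all genes; 5 without treated replicate 1, 3 without treated replicate 3 or corn oil replicate 1 or 2, and 2 without treated replicate 2). The 1 gene was Rhbg, but Slc4a1 with normexp correction and Atp6v1b1 with quantile normalization or spike-in scaling. The median over the 10 was -0.10 with quantile normalization and -0.30 with spike-in scaling. Over all genes, 3 passed in limma, against 56 with normexp correction, 9 with spike-in scaling, 69 with trend and robust settings, 0 to 70 without 1 array (70 and 21 when treated replicate 2 or 1 was dropped), and 0 with a slide block, the replicate block, the mean over probes or no filter on dim probes. The replicate block left 2121 genes at an unadjusted p under 0.05, the slide block 1764, the mean over probes 2443 and no filter 3496. Lower genes made up 33.8% of those at an unadjusted p under 0.05, but 53.7% with quantile normalization, 22.0% with normexp correction, 22.9% with no filter and 95.3% with spike-in scaling.

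The differences of log2 changes between the type B genes and Slc4a1, added after seeing the data, stayed below 0 in all 18 settings. They ran from -0.81 to -0.44 for Slc26a4, -0.81 to -0.45 for Slc4a9 and -1.13 to -0.58 for Insrr. Median or spike-in scaling cannot change a within-array difference, and the filters, blocks and variance settings are no check on it either. The cause of the movements under the alternatives was not tested.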
